A study of Homo sapiens with 18 samples.

Results

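Loss of emerin was compared between 2 prostate cancer cell lines by asking of every gene whether its response to EMD knockdown differed, taken as the log2 change of knockdown over control in 22Rv1 less the same change in DU145. All 12 libraries of these lines, of 18 in the series, entered the comparison: 3 control and 3 EMD knockdown libraries of each line. 22Rv1 is a prostate carcinoma line from a relapsed CWR22R xenograft, and DU145 is one from a brain metastasis. A positive difference means that the gene rose more, or fell less, in 22Rv1 than in DU145.

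Control cells of both lines received a scrambled siRNA and knockdown cells an siRNA against EMD, carried by a cationic lipid reagent that was washed out after 24 h. Names of the DU145 knockdown libraries contain "shEMD" although the protocol names an siRNA, and the labels do not settle which reagent that line received. Culture medium differed (RPMI-1640 for 22Rv1, DMEM for DU145, serum in both), and so did the table and the batch label. Line, medium, batch label and possibly reagent therefore cannot be told apart in any difference below. Nothing says whether a triplicate stands for 3 separate cultures, so p-values measure only the spread between these libraries, which may be technical.

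Emerin, the product of EMD, is anchored in the inner face of the nuclear envelope. It binds A-type lamins, the chromatin protein BANF1, nuclear actin and the LINC complex, which couples the nucleus to the cytoskeleton. It is known for its part in nuclear shape, in the handling of mechanical signals and in the activity of transcription factors such as SRF with its actin-sensing partner MRTF, and beta-catenin.

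Library totals were 15602874 to 30788078 reads in 22Rv1 and 21024352 to 43311727 in DU145. The tables share 21950 genes, of which 14481 passed a filter on low counts in both lines and were tested; 1137 passed in 22Rv1 alone, 2776 in DU145 alone and 3556 in neither. Replicates varied beyond counting error (chi-square over degrees of freedom of 2.49 to 6.54 by group), and the typical biological coefficient of variation was 4.74%. Of identity genes, KLK3, prostate-specific antigen, stood at 17.3 to 20.6 CPM (reads relative to the TMM-scaled library size) in the 3 22Rv1 controls and at 0.446 to 0.829 in those of DU145, while VIM, the mesenchymal intermediate filament, stood at 1.04 to 2.20 and at 2157 to 2252. Of markers of other cell types, 3 of 12 fibroblast and endothelial genes and 1 of 10 blood cell genes passed the filter, none above 5 CPM except the collagen COL1A1, at a mean of 22.03 in 22Rv1 controls and 5.945 after knockdown. COL1A1 and COL1A2 had lower differences, and the part of such cells in the results was not tested. The mitochondrial share of reads was 0.776 to 0.964% in 22Rv1 controls and 1.28 to 1.35% after knockdown, against 8.99 to 9.16% and 7.14 to 7.39% in DU145.

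EMD itself (ENSG00000102119, GRCh38 chrX:154379295-154381523) fell less far in 22Rv1 than in DU145. Its level was 62.3, 66.3 and 58.2 CPM in 22Rv1 controls and 19.7, 18.2 and 16.4 after knockdown. In DU145 it was 49.03, 52.4 and 44.8 in controls and 5.14, 5.12 and 5.64 after knockdown. Every knockdown library lay below every control of its line, and the residual level in 22Rv1 was above that in DU145 without overlap. The log2 change was -1.77 ± 0.08 (SE, n = 3 and 3 libraries, as for all fold changes below) in 22Rv1 and -3.20 ± 0.09 in DU145, a difference of 1.43 ± 0.12 (edgeR adjusted p = 1.07e-10). Every difference below was therefore measured at unequal depths of knockdown, and the part of that inequality in them was not tested.

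Responses to the knockdown differed for most genes. A difference was called for 9749 genes (67.3% of those tested) at a Benjamini-Hochberg adjusted p below 0.05. The called differences were higher for 4641 genes (32.0%) and lower for 5108 (35.3%). Those of at least 1 log2 unit numbered 989 (6.83%) higher and 2187 (15.1%) lower. With a level of at least 5 CPM required in each line, which left 10447 genes, they numbered 541 and 896. Within the lines, 5045 genes (34.8%) rose and 5235 (36.2%) fell in 22Rv1, and 4602 (31.8%) rose and 4060 (28.0%) fell in DU145. Responses were more widely spread in 22Rv1, with an SD over genes of 0.94 log2 against 0.66. Across the tested genes, which are not independent replicates, Pearson's r of the responses was -0.001.

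Opposite movement made up a large share of the called differences. A total of 1476 genes (10.2%) rose in 22Rv1 and fell in DU145, and 1619 (11.2%) fell in 22Rv1 and rose in DU145. Every gene with opposite calls had a called difference. Whether the shares of opposite calls exceed those of unrelated responses was not tested. Both lines rose for 1804 genes (12.5%) and both fell for 1610 (11.1%). Of these same-direction genes, 948 had a higher difference, 896 a lower one and 1570 no called difference. In the remaining called genes 22Rv1 alone passed the threshold for 1382 higher and 1647 lower, DU145 alone for 771 and 865, and neither line for 64 and 81.

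**Figure D1:**
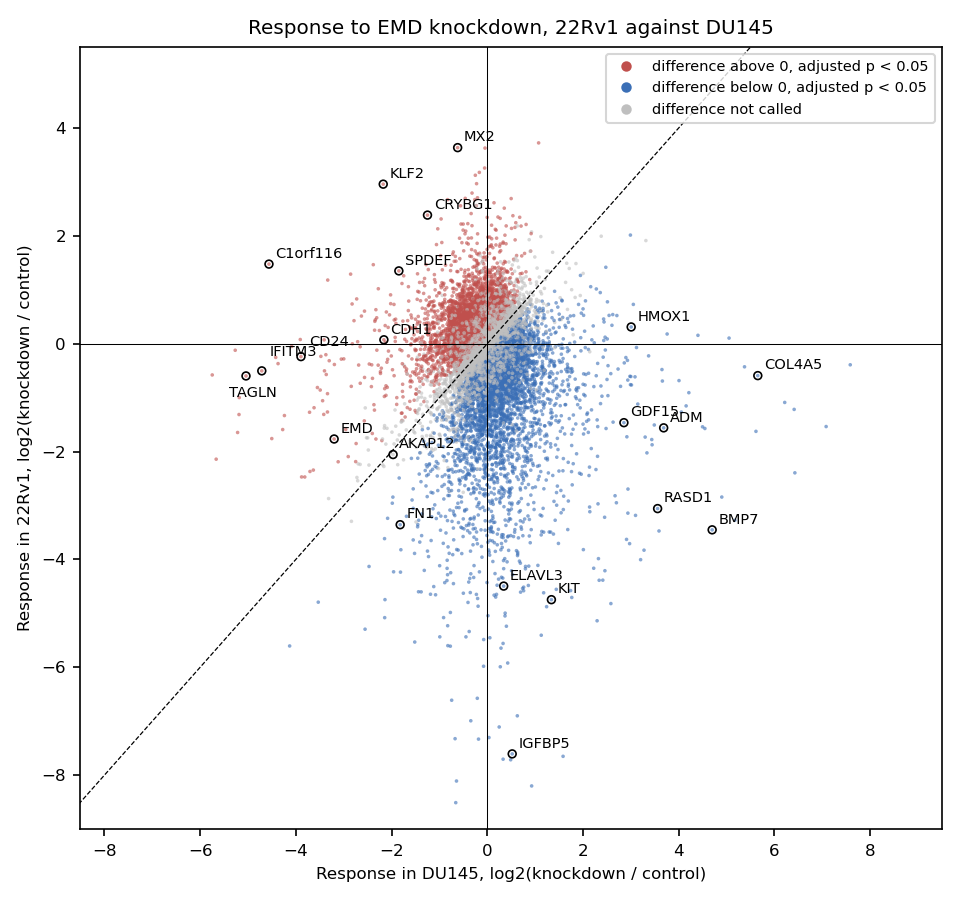
Response of each of the 14481 tested genes in DU145 (horizontal, log2 of knockdown over control) and in 22Rv1 (vertical, same scale); the dashed line marks equal responses, red and blue points have a called difference above and below 0, and circled genes are named. The cloud has no slope, and wide differences fill both the upper left and the lower right quadrant.

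The difference moved with expression level. Its median over all tested genes was -0.03 log2. Over genes whose mean level was at most 2 CPM it was -0.61, at 2 to 10 CPM -0.44, at 10 to 30 CPM -0.11, at 30 to 100 CPM 0.10 and above 100 CPM 0.12. The shift lay in 22Rv1, where the median response in those 5 ranges ran from -0.50 to 0.12, while that of DU145 ran from 0.02 to 0.09. Its part in the lists below, whose members differ in level, was tested only by a fit on log2 CPM after cyclic loess scaling within each line. That fit called 4712 higher and 4745 lower and kept 87.0% of the calls. List medians in the text below are followed by their value under it.

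Among the genes that rose in 22Rv1 and fell in DU145, the largest differences were in C1orf116 and in KLF2, a zinc-finger transcription factor best known for its response to flow in endothelium. C1orf116 stood at 19.8, 20.3 and 18.1 CPM in 22Rv1 controls and 55.9, 50.4 and 54.8 after knockdown, and at 16.8, 18.0 and 19.8 and then 0.857, 0.715 and 0.724 in DU145. The lines thus started at nearly the same level and ended far apart, with a difference of 6.04 ± 0.18 (edgeR adjusted p = 1.28e-20). KLF2 rose from 16.9, 16.3 and 13.3 to 119, 118 and 122 CPM in 22Rv1 and fell from 23.3, 28.5 and 26.7 to 6.03, 5.83 and 5.67 in DU145. Its difference was 5.13 ± 0.12 (edgeR adjusted p = 4.02e-20), with no overlap of control and knockdown libraries in either line. Smaller opposite changes were seen in CRYBG1 (2.38 in 22Rv1 and -1.25 in DU145), in APLN, the apelin peptide (1.26 and -1.75), in EFNB2, an ephrin ligand (1.11 and -1.78), in TAPBP, which loads peptides onto class I antigen-presenting molecules (1.21 and -1.31), and in SOX9 (1.14 and -1.09), a developmental transcription factor of the prostate.

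In the other direction BMP7, a secreted morphogen of the TGF-beta family, had the widest difference among genes reaching a mean of 5 CPM in at least 1 group of each line. It stood at 30.6, 30.6 and 30.2 CPM in 22Rv1 controls and 3.78, 2.44 and 1.76 after knockdown, but at 0.726, 0.315 and 0.490 in DU145 controls and 11.8, 13.6 and 11.5 after knockdown. Control and knockdown libraries were apart in each line, and the difference was -8.15 ± 0.35 (edgeR adjusted p = 3.53e-15). RASD1, a Ras-like GTPase, followed the same course, from 8.09, 7.08 and 6.24 to 0.794, 0.227 and 1.54 CPM in 22Rv1 and from 2.18, 2.15 and 2.61 to 26.5, 30.6 and 25.1 in DU145 (difference -6.62 ± 0.40, edgeR adjusted p = 1.41e-10). ABCC2, an efflux transporter (-2.03 and 3.33), HSPB8, a small heat shock protein (-1.88 and 3.44), NRCAM, a neuronal adhesion molecule (-1.78 and 3.44), and ATP11A, a phospholipid flippase (-2.92 and 1.69), were further members of this group.

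**Figure D2:**
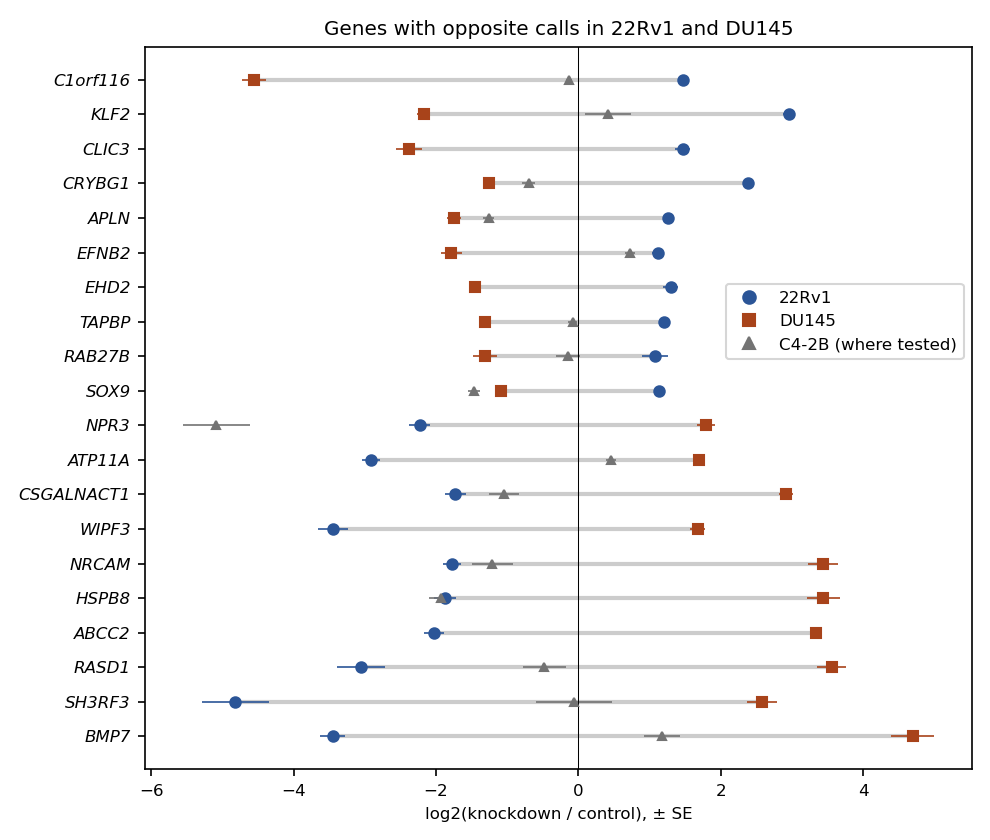
The 10 genes in each orientation with opposite calls in 22Rv1 (circles) and DU145 (squares), ranked by the difference; the horizontal axis is log2 of knockdown over control with SE, and triangles give the C4-2B response where it was tested. The 22Rv1 and DU145 points lie on opposite sides of 0 for all 20 genes, and C4-2B values fall on either side: KLF2 was at 0.42, SOX9 at -1.46 and BMP7 at 1.18.

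In other genes most of the difference lay in DU145. CD24, a surface glycoprotein used to sort stem-like cells, stood at 34.7, 36.6 and 37.3 CPM in 22Rv1 controls and 30.4, 31.5 and 30.1 after knockdown, but fell from 142, 149 and 151 to 9.86, 9.86 and 9.98 in DU145. The difference of 3.65 ± 0.08 (edgeR adjusted p = 1.98e-21) rests on a fall of 3.89 log2 in DU145 against one of 0.24 in 22Rv1; reads of CD24 can be shared with its pseudogene copies. COL4A5, a basement membrane collagen chain, rose in DU145 from 0.570, 0.446 and 0.261 to 20.5, 19.9 and 22.0 CPM, and fell from 20.03, 19.1 and 18.2 to 11.0, 11.8 and 15.6 in 22Rv1. COL4A5 was the lower in DU145 among controls and the higher there after knockdown, without overlap, and the difference was -6.24 ± 0.29 (edgeR adjusted p = 3.11e-17).

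C4-2B, a castration-resistant derivative of LNCaP, offers 6 libraries that this comparison did not use, and its EMD fell by 3.07 log2. Of the 885 genes tested there with a called higher difference of at least 1 log2, 24.3% rose and 22.6% fell in C4-2B. Of the 1552 genes with a called lower difference of at least 1 log2, 23.3% rose and 16.1% fell. Over all 13078 genes tested in the 3 lines, 20.6% rose and 24.6% fell. The median C4-2B response was 0.05 log2 in the first set and 0.11 in the second.

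Some responses were shared. AKAP12, a scaffold protein that binds protein kinase A, fell from 242, 218 and 233 to 58.9, 52.7 and 54.7 CPM in 22Rv1 and from 232, 249 and 242 to 62.1, 59.7 and 62.9 in DU145. Its changes of -2.06 and -1.97 left a difference of -0.09, with a 95% interval of -0.22 to 0.05 (edgeR adjusted p = 0.254). OPTN, an autophagy receptor, fell by 2.25 and 2.19 (interval of the difference -0.36 to 0.23). ITGB3, the beta 3 integrin, fell by 2.02 in each line, at low counts (interval -0.60 to 0.60). NQO1, an antioxidant enzyme, rose in both lines by 0.82 and 0.88 (interval -0.20 to 0.09). These genes were chosen because no difference was called. Intervals around estimates selected in that way do not bound how far the lines could differ.

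List counts here and below stand beside the shares over all tested genes. The difference was higher for 32.0% of those and lower for 35.3%. Within the lines, 34.8% rose and 36.2% fell in 22Rv1, and 31.8% rose and 28.0% fell in DU145. In the list of nuclear envelope and lamina genes, 17 of 26 tested members, EMD included, had a higher difference and 5 a lower one. The 17 include BCLAF1 (1.13) and CTNNB1, beta-catenin (0.55), which are not envelope proteins. The list median was 0.36, and 0.28 after loess scaling. NRM, the inner membrane protein nurim, rose by 0.84 in 22Rv1 and fell by 0.56 in DU145. SYNE1, a giant nesprin of the LINC complex, ran the other way: it stood at 21.6, 19.6 and 18.9 CPM in 22Rv1 controls and 25.7, 26.6 and 27.1 after knockdown, and at 65.0, 68.2 and 78.4 and then 217, 215 and 255 in DU145. SYNE1 rose in both lines, and its difference was -1.30 ± 0.12 (edgeR adjusted p = 1.93e-07). All 3 lamins had called differences: LMNB1 rose by 0.49 and 0.24 (difference 0.25 ± 0.05), LMNB2 rose by 0.58 in 22Rv1 with 0.08 in DU145 (0.50 ± 0.05), and LMNA, at 0.03 in 22Rv1, fell by 0.17 in DU145 (0.19 ± 0.05). Differences of SUN1 (0.06) and LBR (-0.09), the lamin B receptor, were not called.

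Most genes of DNA replication and mitosis rose in 22Rv1, and most had a higher difference. Of 30 G1/S and replication genes, 28 rose in 22Rv1 and 1 fell, against 8 and 8 in DU145. The difference was higher for 24 and lower for 2, with a median of 0.44, and 0.34 after loess scaling. UHRF1, which carries DNA methylation through replication, stood at 58.8, 58.0 and 56.7 CPM in 22Rv1 controls and 131, 135 and 130 after knockdown, and at 355, 378 and 381 and then 274, 271 and 275 in DU145. Its groups did not overlap in either line, with a rise in 22Rv1, a fall in DU145 and a difference of 1.63 ± 0.05 (edgeR adjusted p = 4.85e-18). CLSPN, a checkpoint mediator at the fork, rose by 1.37 in 22Rv1 with 0.00 in DU145. Of 30 G2/M genes, 25 rose and 2 fell in 22Rv1, and 17 rose and 6 fell in DU145. The difference was higher for 21 and lower for 5, again with a median of 0.44, and 0.34 after loess scaling. CENPE, a kinetochore motor, and PLK1, a mitotic kinase, were 1.01 and 0.88 higher, while TOP2A, the replication-linked topoisomerase, was 0.26 lower. CDC25C, a phosphatase of mitotic entry, fell by 0.29 in 22Rv1 and rose by 0.51 in DU145, and CENPF, a kinetochore protein, rose by 0.48 in DU145 with 0.14 in 22Rv1; both were named after their values were seen. In C4-2B, 27 of these G1/S genes and all 30 G2/M genes fell. Of splicing regulators, 22 of 30 rose in 22Rv1 and 25 in DU145. The difference was higher for 17 and lower for 5 (median 0.19, and 0.13 after loess scaling). SRSF1 and SRSF2 rose by 1.59 and 1.23 in 22Rv1 and by 0.15 and 0.16 in DU145.

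Most SRF and MRTF target and actin genes fell in DU145. There, 19 of 22 fell and 1 rose, while 11 fell and 9 rose in 22Rv1. The difference was higher for 14 and lower for 5 (median 0.60, and 0.70 after loess scaling). TAGLN, the smooth muscle protein transgelin, stood at 86.3, 89.1 and 82.4 CPM in DU145 controls and 2.76, 2.63 and 2.42 after knockdown, and at 3.20, 2.56 and 2.62 and then 1.93, 1.76 and 1.87 in 22Rv1. TAGLN fell in both lines, and the difference of 4.44 ± 0.18 (edgeR adjusted p = 1.18e-15) lies in the depth of the DU145 fall. CALD1, an actin-binding regulator of contraction, rose by 0.64 in 22Rv1 and fell by 1.16 in DU145. SRF itself went the other way. It fell from 470, 485 and 457 to 141, 135 and 143 CPM in 22Rv1 and from 114, 129 and 122 to 90.6, 88.9 and 70.2 in DU145, a difference of -1.20 ± 0.11 (edgeR adjusted p = 2.21e-06). FHL2, a LIM-domain cofactor and SRF target, also had a lower difference, with a fall of 3.24 in 22Rv1 against 1.07 in DU145.

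SRF binds the CArG box, and promoter windows are shown for 3 members whose differences run both ways. The windows come from the RefSeq promoters of GRCh38.p14, which hold 250 bases before and 50 after each start; only bases before the start are printed, 5′ to 3′ on the gene's strand, with the CArG box in capitals. Both strands were searched. The box occurred in 6 of 19 promoters found for the list and in 1.29% of all 27305 promoters.
SRF (chr6:43171219-43171268, plus strand): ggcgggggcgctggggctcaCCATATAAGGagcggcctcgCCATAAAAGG
FHL2 (chr2:105438585-105438634, minus strand): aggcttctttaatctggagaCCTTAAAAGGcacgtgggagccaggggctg
FLNA (chrX:154374699-154374748, minus strand): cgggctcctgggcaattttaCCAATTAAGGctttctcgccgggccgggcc
SRF (difference -1.20) carries 2 boxes, the last ending at the base before the start, and FHL2 (-2.18) and FLNA (0.74) carry 1 each. The other matches were in TPM4 (0.92), ACTG1 (0.74) and CNN2 (0.10, not called). FLNA, the actin cross-linker filamin A and a neighbour of EMD on the X chromosome, fell by 0.49 in 22Rv1 and by 1.24 in DU145. A match describes these letters alone, and these genes were chosen after their values and matches were seen.

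**Figure D3:**
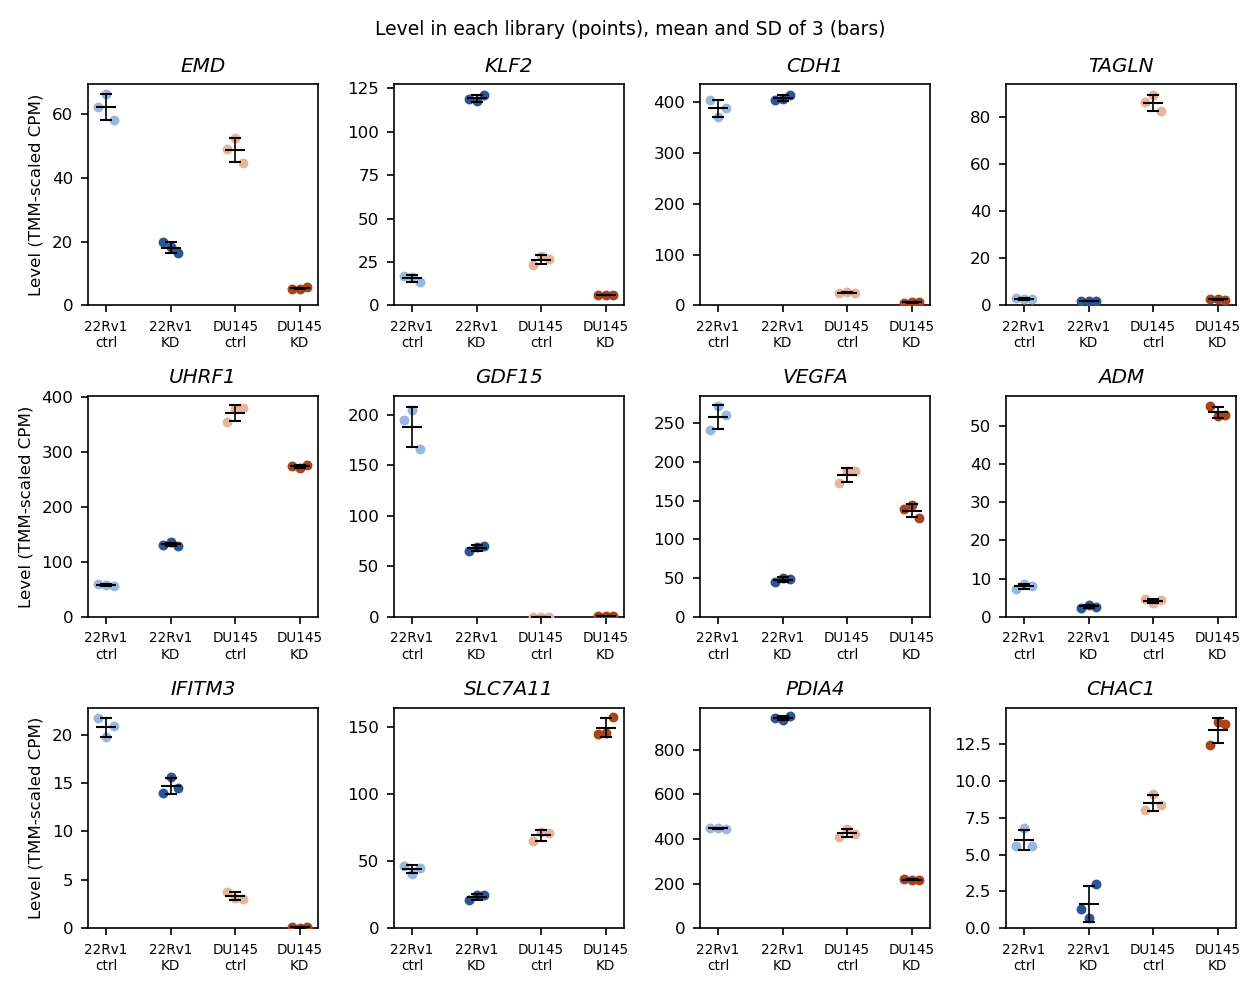
Level of 12 genes in each of the 12 libraries (points, TMM-scaled CPM, linear axes from 0), with the mean and SD of 3 libraries per group. EMD falls in both lines, KLF2 rises in 22Rv1 and falls in DU145, and TAGLN falls in DU145 from a high level that 22Rv1 controls do not have.

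Genes of the ATF4 and unfolded protein response ran both ways. Of 28 tested, 9 had a higher and 17 a lower difference (median -0.39, and -0.43 after loess scaling), and 13 had opposite calls. Several genes of amino acid supply were among the lower ones. SLC7A11, the cystine transporter, fell from 46.6, 40.6 and 44.9 to 21.03, 24.6 and 24.7 CPM in 22Rv1 and rose from 64.7, 72.0 and 71.2 to 145, 145 and 158 in DU145. Its libraries did not overlap in either line (difference -2.03 ± 0.09, edgeR adjusted p = 5.38e-15). CHAC1, which degrades glutathione, stood at 5.61, 6.78 and 5.58 and then 1.29, 0.682 and 3.02 CPM in 22Rv1, and at 8.03, 9.11 and 8.36 and then 12.4, 14.0 and 13.9 in DU145 (difference -2.50 ± 0.36, edgeR adjusted p = 2.52e-05). PHGDH, the entry enzyme of serine synthesis (-1.30 and 0.29), DDIT3, the stress factor CHOP (-0.92 and 0.53), and ATF4 (-0.44 and 0.31) had the same orientation.

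Several proteins of folding in the endoplasmic reticulum were among the higher ones. PDIA4, a disulfide isomerase, rose from 448, 450 and 445 to 942, 933 and 953 CPM in 22Rv1 and fell from 410, 445 and 422 to 219, 217 and 215 in DU145. The lines began level and ended more than 4-fold apart, at a difference of 2.05 ± 0.05 log2 (edgeR adjusted p = 1.58e-20). CALR, calreticulin, had the same orientation (0.42 and -0.71), and HSPA5, the chaperone BiP, rose in both lines (0.79 and 0.28). HSP90B1, another chaperone there, had a lower difference (-0.12), and ATF5, a relative of ATF4, a higher one, rising by 2.19 in 22Rv1 and falling by 0.32 in DU145. Members named here beyond CHAC1, SLC7A11, PDIA4 and ATF5 were picked, and set beside each other, after their values were seen.

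Promoters of 4 members show the elements that these arms of the stress response are known for. The ER stress element, CCAAT, then 9 bases of any kind, then CCACG, was found in 4 of 25 promoters of the list and in 0.0806% of all. The letters TGATGNAA, the composite site of ATF4 and C/EBP, were found in 4 of 25 and in 3.67% of all. Capitals mark the match, on either strand, in the same promoter set; CALR and CHAC1 hold theirs on the opposite strand.
CALR (chr19:12938364-12938422, plus strand): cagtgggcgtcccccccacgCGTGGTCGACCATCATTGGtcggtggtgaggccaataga
HSPA5 (chr9:125241371-125241429, minus strand): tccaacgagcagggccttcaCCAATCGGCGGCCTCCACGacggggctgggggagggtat
CHAC1 (chr15:40953242-40953289, plus strand): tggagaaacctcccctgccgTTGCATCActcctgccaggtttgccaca
ASNS (chr7:97872449-97872496, minus strand): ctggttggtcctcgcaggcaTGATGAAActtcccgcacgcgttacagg
CALR and HSPA5 had differences of 1.12 and 0.51, and CHAC1 and ASNS, asparagine synthetase, of -2.50 and -0.94. The other matches to the ER stress element were in HSP90B1 (-0.12) and XBP1 (0.07, not called). The other matches to TGATGNAA were in HERPUD1 (0.19) and SLC3A2 (-0.25), both called. Members with either element did not share a direction.

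**Figure D4:**
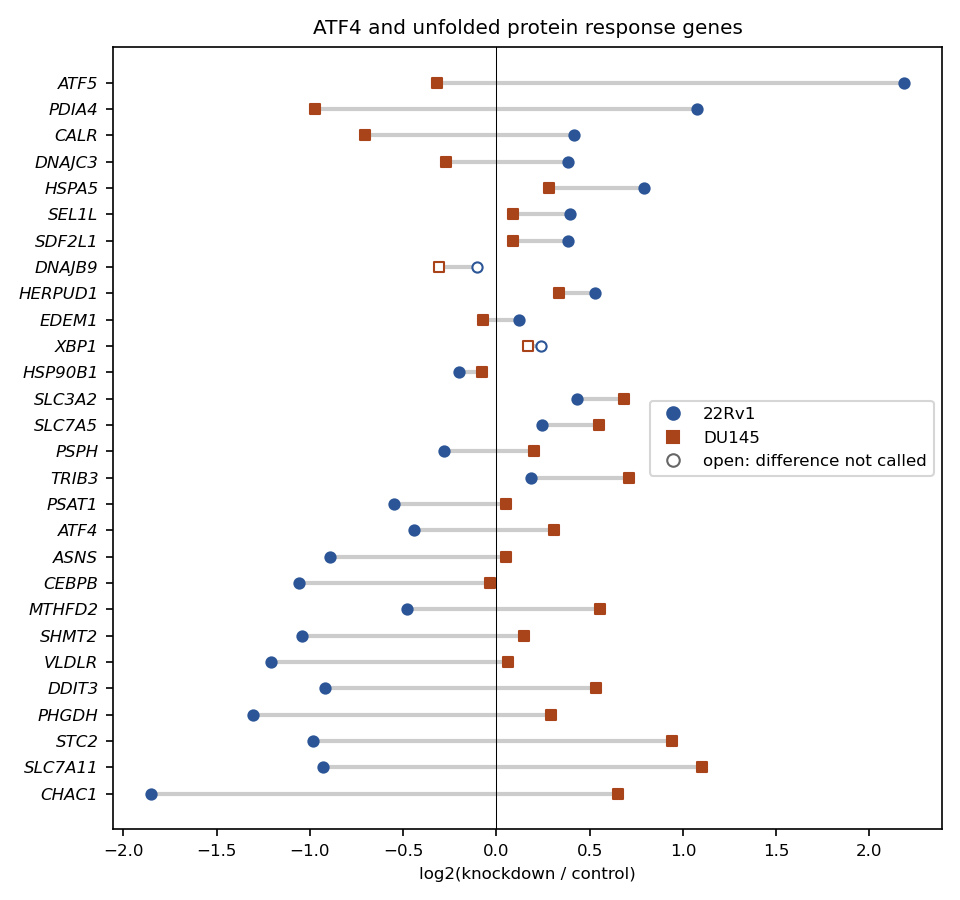
Response of the 28 tested ATF4 and unfolded protein response genes in 22Rv1 (circles) and DU145 (squares), as log2 of knockdown over control, ordered by the difference; open symbols mark the 2 genes whose difference was not called. ATF5 and PDIA4 head the list with 22Rv1 to the right, and CHAC1 and SLC7A11 close it with 22Rv1 to the left.

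Hypoxia and glycolysis genes mostly had a lower difference. Of 29 tested, 3 had a higher and 21 a lower difference (median -0.74, and -0.71 after loess scaling). In 22Rv1 20 fell and 7 rose, while in DU145 13 rose, 6 fell and 10 were not called. VEGFA, the angiogenic growth factor, fell from 241, 272 and 261 to 44.9, 50.3 and 49.5 CPM in 22Rv1 and from 173, 188 and 189 to 139, 145 and 128 in DU145. VEGFA fell in both lines without overlap, and the difference was -2.004 ± 0.08 (edgeR adjusted p = 9.06e-15). ADM, the vasodilator peptide adrenomedullin, fell from 7.34, 8.50 and 8.05 to 2.38, 3.07 and 2.69 in 22Rv1 and rose from 4.72, 3.70 and 4.28 to 55.1, 52.5 and 52.7 in DU145 (difference -5.25 ± 0.16, edgeR adjusted p = 2.99e-19). ENO1 and TPI1, glycolytic enzymes of high level, had differences of 0.09 and 0.03 that were not called.

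Cholesterol synthesis ran the other way. Of 25 tested genes, 15 rose and 6 fell in 22Rv1, and 3 rose and 19 fell in DU145. The difference was higher for 20 and lower for 3 (median 0.54, and 0.61 after loess scaling), with 13 opposite calls. ACAT2, which makes acetoacetyl-CoA, rose from 37.4, 38.5 and 39.6 to 78.4, 78.9 and 80.7 CPM in 22Rv1 and fell from 110, 114 and 117 to 78.3, 80.6 and 81.1 in DU145, so that the knockdown libraries of the lines met at about the same level (difference 1.55 ± 0.06, edgeR adjusted p = 1.76e-16). CYP51A1, LSS and TM7SF2, enzymes of the sterol branch, were 1.45, 1.51 and 1.80 higher, and each rose in 22Rv1 and fell in DU145. The difference of INSIG1, the sterol-sensing retention factor, was 0.12 and not called.

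Translation and mitochondrial genes also parted. Of 44 ribosomal protein genes, 35 fell and 2 rose in 22Rv1, 36 rose and 5 fell in DU145, and 30 had opposite calls. The difference was lower for 39 and higher for 1, with a median of -0.48, and -0.53 after loess scaling. RPL13A fell by 0.53 and rose by 0.47. Of the 13 protein-coding genes of mitochondrial DNA, 10 rose in 22Rv1 and 11 fell in DU145. A higher difference was called for 11 and a lower one for none (median 1.06, and 1.04 after loess scaling). MT-CO3, a cytochrome oxidase subunit, rose by 1.03 in 22Rv1 and fell by 0.31 in DU145. Of its OXPHOS partners encoded in the nucleus, 10 of 34 were higher and 13 lower, against 32.0% and 35.3% of all tested genes. Their median was -0.04, and -0.15 after loess scaling. Reads of ribosomal protein and mitochondrial genes can be split with pseudogene copies by the counting, so single members are uncertain.

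Lineage genes did not move as one. Of 20 luminal and androgen-response genes, 7 had a higher and 8 a lower difference, against 32.0% and 35.3% of all tested genes. Their median was -0.18, and -0.19 after loess scaling. CDH1, the epithelial cadherin, stood at 404, 370 and 389 CPM in 22Rv1 controls and 404, 406 and 414 after knockdown, and fell in DU145 from 24.3, 25.5 and 24.6 to 4.99, 5.76 and 5.95. The 22Rv1 groups touch and those of DU145 are far apart, which gives a difference of 2.23 ± 0.08 (edgeR adjusted p = 1.49e-17). SPDEF, a luminal ETS factor, rose from 48.5, 49.7 and 45.5 to 122, 122 and 121 CPM in 22Rv1 and fell from 0.881, 1.84 and 1.76 to 0.643, 0.376 and 0.283 in DU145 (3.20 ± 0.30, edgeR adjusted p = 5.85e-10). ZBTB16 (-1.28) and NDRG1 (-1.19) were among the 8 lower members. So was EPCAM (-0.96), an epithelial adhesion molecule named after its value was seen. The difference of KLK3, below 1 CPM in DU145, was -0.21 and not called (interval -0.99 to 0.57). TMPRSS2 and CHGA did not pass the filter in both lines.

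Mesenchymal and neuronal genes mostly had a lower difference. Of 14 mesenchymal genes, 3 were higher and 8 lower (median -0.68, and -0.62 after loess scaling). FN1, fibronectin, fell from 548, 523 and 495 to 48.6, 51.8 and 52.8 CPM in 22Rv1 and from 26.1, 26.4 and 31.7 to 8.08, 7.60 and 8.15 in DU145 (difference -1.54 ± 0.10, edgeR adjusted p = 1.94e-11). VIM rose by 0.63 in 22Rv1, at about 2 CPM, with a difference of 0.66 ± 0.23. Of 11 neuroendocrine and neuronal genes none was higher and 8 were lower (median -1.17, and -0.9997 after loess scaling, which called 7 lower). DLL3, a Notch ligand of neuroendocrine tumours, fell from 32.3, 31.9 and 26.4 to 3.33, 2.33 and 2.91 CPM in 22Rv1 and rose from 5.80, 6.54 and 6.46 to 7.62, 8.58 and 8.66 in DU145 (-3.76 ± 0.17, edgeR adjusted p = 1.52e-15). ELAVL3, a neuronal RNA-binding protein, fell in 22Rv1 from 47.0, 45.7 and 45.8 to 1.89, 1.82 and 2.47 CPM and stayed under 1 CPM in all DU145 libraries. SYP, synaptophysin, had a difference of -0.23 (interval -0.63 to 0.16) that was not called.

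IGF-binding and immediate-early genes mostly had a lower difference. Of 12 IGF-binding and signalling genes, 2 had a higher and 9 a lower difference (median -1.07, and -1.01 after loess scaling). IGFBP5, a secreted IGF-binding protein, fell from 136, 134 and 128 to 0.681, 0.398 and 0.934 CPM in 22Rv1, and stood at 1.24, 0.683 and 0.686 and then 1.41, 0.678 and 1.32 in DU145, where the groups overlap. Its relative IGFBP2 rose by 2.93 in DU145 and fell by 0.31 in 22Rv1. Of 9 EGF-family ligands and receptors, 3 were higher and 4 lower (median -0.48, and -0.25 after loess scaling), against 32.0% and 35.3% of all tested genes. TGFA, a ligand, fell in both lines (-2.3 in 22Rv1 and -3.6 in DU145), with a difference of 1.29. EGFR, its receptor, named after its value was seen, was at 0.88. The ligands AREG (-1.98), EGF (-1.55) and HBEGF (-1.17) were among the 4 lower ones. Of 18 stem-like and plasticity genes, 7 were higher and 8 lower. Among them KIT, the stem cell factor receptor, fell from 5.02, 6.48 and 4.52 to 0.227, 0.170 and 0.165 CPM in 22Rv1 and stayed under 1 CPM in DU145. Of 27 immediate-early and ERK feedback genes, 6 were higher and 16 lower (median -0.58, and -0.50 after loess scaling). DUSP5, a phosphatase that acts on ERK, fell by 2.56 in 22Rv1 with 0.14 in DU145. The transcription factors FOS (-1.39 and 0.75), EGR1 (-1.08 and 0.50) and ATF3 (-1.58 and 0.66), named after their values were seen, fell in 22Rv1 and rose in DU145. The largest differences of the list were nonetheless higher ones, KLF2, described above, at 5.13 and DUSP4 at 2.79.

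**Figure D5:**
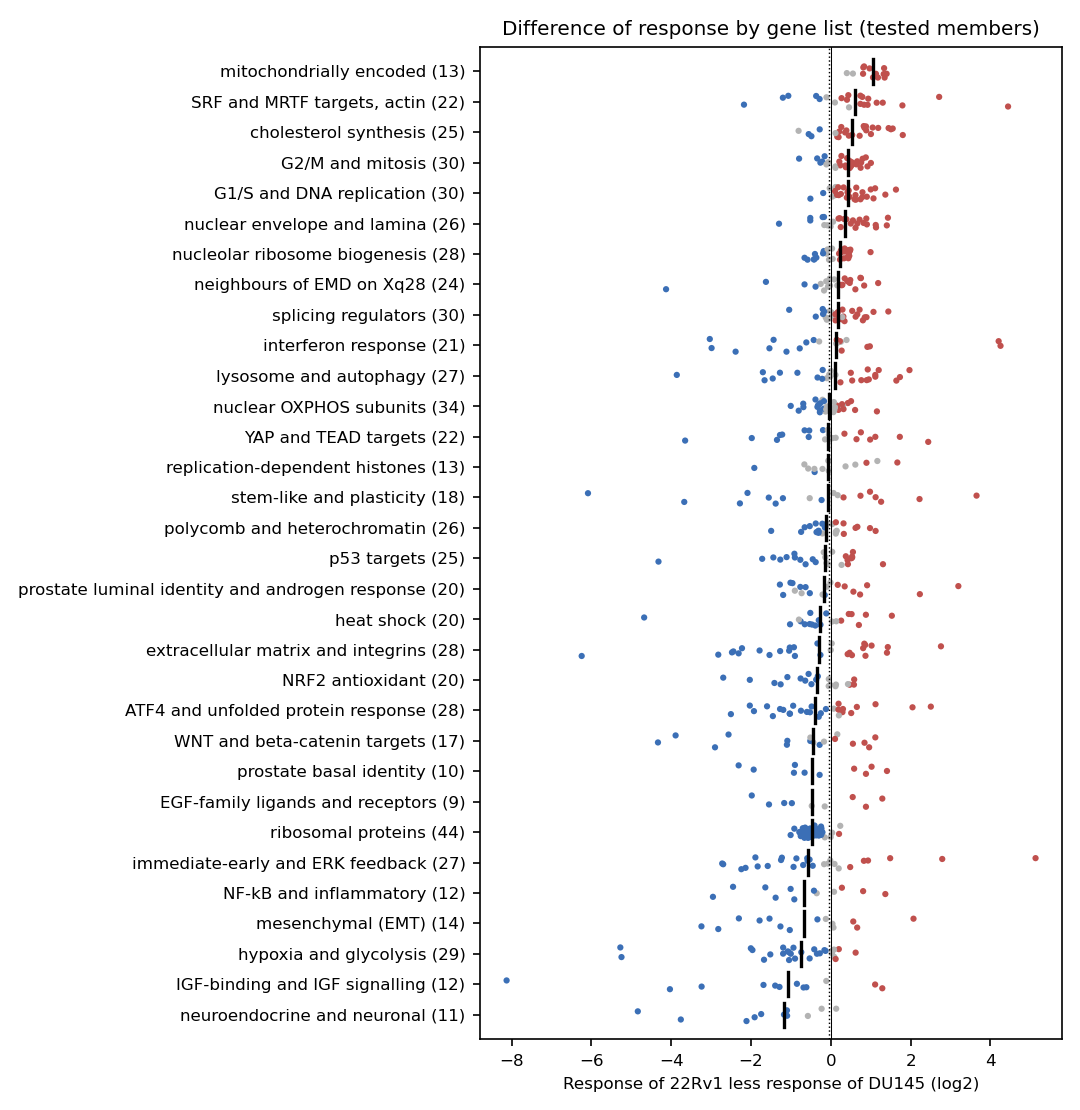
Difference of response (log2, horizontal) of every tested member of each gene list with at least 5 tested members, with the number tested in parentheses; red and blue points are called above and below 0, black bars are list medians and the dotted line is the median of all tested genes. Mitochondrially encoded genes top the ranking at 1.06, and neuroendocrine and neuronal genes end it at -1.17.

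Interferon, p53 and antioxidant genes had members on both sides of 0. Of 21 interferon genes, 7 were higher and 9 lower, against 32.0% and 35.3% of all tested genes. IFITM3, a membrane protein that blocks virus entry, fell from 3.78, 3.15 and 3.07 to 0.153, 0.0753 and 0.126 CPM in DU145 and from 21.7, 19.7 and 20.8 to 14.0, 15.6 and 14.5 in 22Rv1 (4.21 ± 0.40, edgeR adjusted p = 2.92e-12), and its reads can be split with those of the near-identical IFITM genes. MX2, another antiviral protein, rose from 0.489, 0.714 and 0.512 to 6.58, 6.59 and 7.53 CPM in 22Rv1, and its DU145 groups overlap.

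Of 25 p53 targets, 8 were higher and 11 lower, against 32.0% and 35.3% of all tested genes. GDF15, a stress-induced secreted factor, fell from 195, 204 and 166 to 64.8, 69.4 and 70.4 CPM in 22Rv1, while in DU145 it summed to only 5 reads in controls and 40 after knockdown. CDKN1A, the cell-cycle inhibitor p21, fell in both lines, by 0.89 and 1.43. Of 20 NRF2 antioxidant genes, 3 were higher and 11 lower (median -0.35, and -0.36 after loess scaling). HMOX1, heme oxygenase, rose from 40.8, 39.2 and 39.0 to 316, 326 and 312 CPM in DU145 and from 10.1, 9.28 and 11.2 to 13.0, 12.8 and 12.6 in 22Rv1. The rise of HMOX1 was present in both lines and was far larger in DU145 (difference -2.70 ± 0.08, edgeR adjusted p = 2.77e-18). FTH1, ferritin heavy chain, rose by 1.301 in DU145 and fell by 0.11 in 22Rv1.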

How the data were processed

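The authors deposited whole-number expected counts per gene. STAR, RSEM 1.3.1 and GRCh38 are the tools and build named in the submitters' processing notes. The annotation and strandedness are not given in the sources used here, so a gene and its antisense or overlapping neighbour may share reads. For DU145, 92 spike-in rows and 30 second copies of pseudoautosomal genes were left out. Tables were joined on the unversioned Ensembl identifier. Genes passing filterByExpr (minimum count 10, minimum total 15) in each line entered edgeR 4.0.16 (R 4.3.3, TMM scaling, robust quasi-likelihood F test, 1 coefficient per group, 12 libraries), with Benjamini-Hochberg adjustment over all 14481 genes. Standard errors come from the fitted weights and the posterior dispersion; intervals are 95%. The fit was run on counts simulated from the group means and dispersions of these data, with equal responses in both lines except in randomly chosen genes. Such counts carry no batch effect and no difference that moves with level, so that run cannot speak to either. Limma 3.58.1 and DESeq2 1.42.0 served as alternatives. The difference and the gene lists were chosen with earlier results of these data known, and 3 genes were removed from lists as wrong members after values were seen. Named genes are a fixed set of identity and envelope genes, the 12 largest differences each way reaching 5 CPM in a group of each line, without overlap of the knockdown libraries between lines, the 10 strongest opposite calls each way under the same limits, 6 genes called in 1 direction in both lines with the largest called difference and 6 with a difference within 0.2 that was not called, and per list the 4 largest called differences and the 2 most expressed uncalled members. Some items are not reported here.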

Additional observations from a re-analysis of the deposited data

Results flagged for a closer look

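The response to EMD knockdown differed between 22Rv1 and DU145 by the test of the difference itself for 4641 genes higher and 5108 lower, and for EMD, at 1.43 log2. Every gene given above with a called difference met that criterion. Over all tested genes, 10.2% rose in 22Rv1 and fell in DU145 with a called difference, and 11.2% did the reverse. By list, members with such opposite calls in either orientation were 10 of 13 mitochondrially encoded genes, 30 of 44 ribosomal proteins, 13 of 25 in cholesterol synthesis, 9 of 18 stem-like and plasticity genes, 13 of 28 in the ATF4 and unfolded protein response, and 4 of 9 EGF-family ligands and receptors. They were 11 of 27 in lysosome and autophagy and in immediate-early and ERK feedback, 11 of 29 in hypoxia and glycolysis, 8 of 22 SRF and MRTF targets, 8 of 24 neighbours of EMD on Xq28, 4 of 12 in IGF-binding and signalling, and 9 of 28 in extracellular matrix and integrins. Shares nearer to that of all genes, or below it, were found for NRF2 antioxidant (6 of 20), basal identity (3 of 10), p53 targets (7 of 25), NF-kB (3 of 12), G1/S and DNA replication (7 of 30), polycomb (6 of 26), nuclear envelope and lamina (6 of 26), YAP and TEAD targets (5 of 22), mesenchymal (3 of 14), nuclear OXPHOS (7 of 34), G2/M and mitosis (6 of 30), neuroendocrine (2 of 11), WNT and beta-catenin (3 of 17), histones (2 of 13), heat shock (3 of 20), luminal identity (3 of 20), nucleolar (3 of 28), interferon (1 of 21) and splicing (1 of 30). Lists share some members.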

How the results depend on the processing

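The difference was refitted under 24 settings, 12 of which left out 1 library. Genes at least 1 log2 apart numbered 541 higher and 896 lower when 5 CPM was required in each line, which tests 10447 genes. No named gene reversed its call. Of 177 called named genes 168 kept call and direction under every setting; VIM, BANF1, KRT18, AKR1C1, EGF, H1-2, MT-ATP8, AREG and TGFBI lost theirs under at least 1, and 39 of 68 uncalled genes gained one. A sign change of a gene uncalled in both fits was not counted. With DESeq2 4837 genes were higher and 4701 lower. Unscaled library totals moved the median of all genes to -0.12 and gave 4000 higher and 5803 lower (40.8% of calls higher against 47.6%). Leaving out each library gave 4402 to 5036 higher and 4574 to 4992 lower genes, and 1.37 to 1.55 for EMD. With the replicate number as a block 4676 were higher and 5125 lower, and EMD was at 1.42. Deviations of same-numbered libraries correlated at 0.01 to 0.02 in 22Rv1 and 0.04 to 0.15 in DU145. The limit set for pairing was 0.1, and replicate 2 of DU145 lay above it. The main fit did not take the numbers as pairing, and these values do not settle pairing in DU145. Low counts limit genes such as KIT and GDF15, whose standard errors were 0.68 and 0.84 log2.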

Other observations

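Of 17 tested WNT and beta-catenin target genes, 5 had a higher and 8 a lower difference (median -0.44, and -0.20 after loess scaling). NOTUM, a secreted Wnt deacylase, fell by 2.20 log2 in 22Rv1 and rose by 1.69 in DU145, and NKD1, a feedback inhibitor, fell by 3.06 in 22Rv1 with -0.15 in DU145. Of 28 extracellular matrix and integrin genes, 11 were higher and 15 lower. THBS1, thrombospondin 1, rose by 0.74 in 22Rv1 and fell by 2.02 in DU145, whereas the collagen COL4A2 fell in both, by 3.65 and 1.17.

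Neighbours of EMD on Xq28 were split as follows: 12 of 24 were higher and 4 lower, with a median of 0.19, and 0.15 after loess scaling. Among blood cell markers ITGAM summed to 73 reads in 22Rv1 controls and none after knockdown, and to 22 and 69 reads in DU145; no fold is given for it.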
